A study of Mus musculus with 12 samples.

Results

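The genes described here were 10 inflammatory CC chemokine genes, Ccl2, Ccl3, Ccl4, Ccl5, Ccl7, Ccl11, Ccl12, Ccl17, Ccl22 and Ccl24, taken by name from the 22180 genes measured in spleen. Each of the 10 had 1 probe set that was annotated to its symbol alone, and the rule that chose them used names only, though earlier results of these data were known. RNA came from the spleens of 12 female C57BL/6 mice, aged 10 weeks per the labels, and was measured on Affymetrix Mouse Gene 2.0 ST arrays, 1 a mouse and 3 a group. The groups were ficolin KO mice and WT mice that had been given 10 mg/kg of LPS (lipopolysaccharide of Escherichia coli) intraperitoneally 6 h before sacrifice, and ficolin KO mice and WT mice that were naive, meaning untreated. The ficolin KO mice lack both ficolins of the mouse, ficolin-A (Fcna) and ficolin-B (Fcnb), and both genotypes were bred from the offspring of heterozygous mice. Naive mice were not given a vehicle injection per the labels, so the response to LPS includes that of the injection.

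CC chemokines are small secreted proteins with adjacent cysteines near their N terminus that draw leukocytes along a gradient by way of receptors coupled to G proteins. The inflammatory members are made on demand by macrophages, dendritic cells, stromal cells and lymphocytes after signals such as LPS, which acts through TLR4, NF-kB and type I interferon, whereas homeostatic members are made without such a signal. In the description below the ligands are grouped by their known targets: those of CCR2, which monocytes carry, Ccl3, Ccl4 and Ccl5, which draw monocytes, T cells and NK cells, those of CCR3 of eosinophils, and those of CCR4 of regulatory and Th2 T cells. All values are log2 intensities of 1 probe set, a unit is a doubling of the signal, and levels of different genes cannot be set against each other.

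Fcna, the ficolin-A gene, separated the genotypes, with mean log2 intensities of 4.38 in LPS challenged ficolin KO mice and 8.08 in LPS challenged WT mice, and of 4.39 in naive ficolin KO mice and 9.02 in naive WT mice. Fcnb, which is expressed mainly in bone marrow, was dim in every group, with group means from 3.44 to 3.54, a level at which a deletion cannot show. Markers of B cells (4 measured), T cells (5) and red pulp macrophages (6) lay above the array's median on all 12 arrays. Array medians ranged from 4.17 to 4.27, and dim means below the median of an array, since the files used give no detection calls.

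Of the 10 genes, 9 rose in LPS challenged ficolin KO mice against naive ficolin KO mice (fold-change over 2 and adjusted p under 0.05, limma over all genes), where 4.22% of the 22180 genes did. In WT mice 8 of the 10 rose, against 4.05% of all genes. None of the 10 fell in either genotype, where 4.41% of all genes did in ficolin KO and 4.94% in WT mice. The gene that rose in ficolin KO mice only by these criteria was Ccl17, and the gene that rose in neither was Ccl24. The median log2 fold-change of the 10 was 2.71 in ficolin KO and 2.69 in WT mice, beside -0.01 and 0.01 over all genes. LPS challenged and naive arrays did not overlap for 9 of the 10 in each genotype, where 39.7% of all genes did not in ficolin KO and 40.7% in WT mice.

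**Figure D1:**
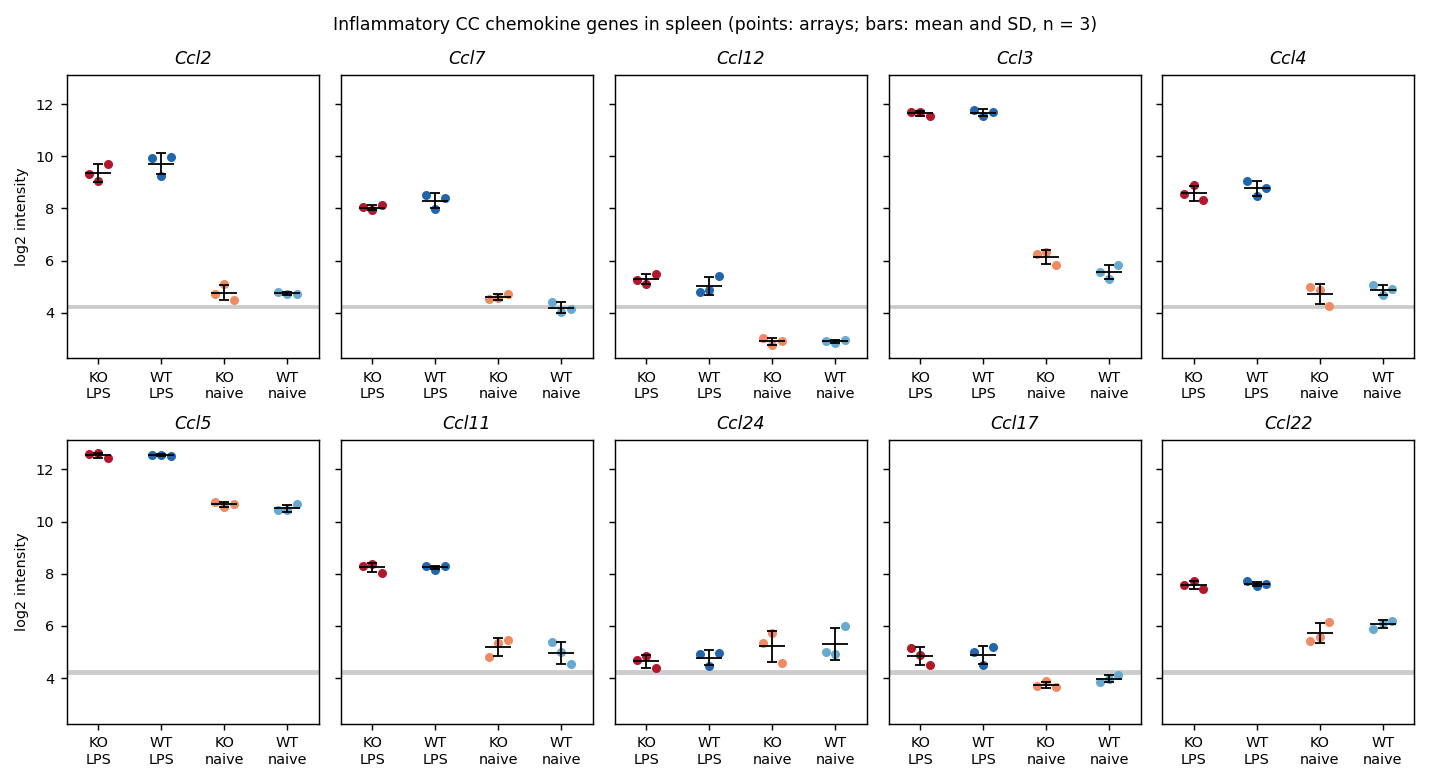
Log2 intensity (y axis) of each of the 10 CC chemokine genes on every array, in LPS challenged ficolin KO, LPS challenged WT, naive ficolin KO and naive WT mice (x axis); points are arrays, lines the mean and SD of 3 mice, and the grey band spans the array medians, 4.17 to 4.27. In 9 panels the LPS challenged arrays lie above all naive arrays of their genotype, and in the Ccl24 panel they do not.

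Ccl2, Ccl7 and Ccl12 are ligands of CCR2 that recruit monocytes from marrow and blood. The log2 intensity of Ccl2 was 9.33, 9.05 and 9.70 in LPS challenged ficolin KO mice and 4.73, 5.09 and 4.50 in naive ficolin KO mice. In WT mice Ccl2 was at 9.94, 9.26 and 9.96 after LPS and at 4.81, 4.71 and 4.73 in naive mice. All LPS challenged arrays thus lay far above all naive ones, and the LPS challenged groups of both genotypes overlapped. The log2 fold-change of Ccl2 was 4.59 in ficolin KO mice (SE 0.20, fold-change 24.0, adjusted p = 6.12e-10, limma) and 4.97 in WT mice (SE 0.20, fold-change 31.3, adjusted p = 2.46e-10), which placed it 8th in ficolin KO and 9th in WT mice from the top of all genes.

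Ccl7, which also binds CCR1 and CCR3, was at 8.04, 7.94 and 8.12 in LPS challenged ficolin KO mice and at 4.53, 4.56 and 4.73 in naive ficolin KO mice. In WT mice it was at 8.50, 7.97 and 8.42 after LPS and at 4.43, 4.05 and 4.13 in naive mice. The naive WT arrays were the lowest of the 12, and 2 of these 3 lay below their array's median. Ccl7 rose by a log2 fold-change of 3.43 in ficolin KO mice (SE 0.15, adjusted p = 4.69e-10) and 4.09 in WT mice (SE 0.15, adjusted p = 7.09e-11).

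Ccl12, a further CCR2 ligand of the mouse, was dim on all 6 naive arrays, at 3.04, 2.75 and 2.92 in naive ficolin KO mice and 2.91, 2.86 and 2.95 in naive WT mice. After LPS it was at 5.27, 5.11 and 5.49 in ficolin KO mice and at 4.80, 4.86 and 5.43 in WT mice. Its fold-changes, 5.23 in ficolin KO mice (log2 2.39, SE 0.16, adjusted p = 3e-08) and 4.36 in WT mice (log2 2.12, SE 0.16, adjusted p = 9.16e-08), may be too small, since a signal this low can be background.

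Ccl3 and Ccl4 encode macrophage inflammatory proteins, of which Ccl3 binds CCR1, and Ccl5 encodes RANTES, a ligand of CCR1 and CCR3 that T cells and NK cells hold in store. Ccl3 was at 11.71, 11.70 and 11.53 in LPS challenged ficolin KO mice and at 6.27, 6.33 and 5.83 in naive ficolin KO mice. In WT mice it was at 11.78, 11.53 and 11.70 after LPS and at 5.58, 5.28 and 5.82 in naive mice. The LPS challenged groups overlapped, and the naive ficolin KO arrays all lay above the naive WT arrays. The rise of Ccl3 was the steepest of the 10 genes, with a fold-change of 45.4 in ficolin KO mice (log2 5.50, SE 0.16, adjusted p = 1.15e-11) and 69.1 in WT mice (log2 6.11, SE 0.16, adjusted p = 2.53e-12), and Ccl3 stood 4th from the top of all genes in ficolin KO and 3rd in WT mice.

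Ccl4 was at 8.56, 8.89 and 8.32 in LPS challenged ficolin KO mice and at 5.0, 4.89 and 4.28 in naive ficolin KO mice. In WT mice Ccl4 was at 9.05, 8.49 and 8.78 after LPS and at 5.07, 4.67 and 4.91 in naive mice. Its fold-changes of 14.6 in ficolin KO mice (log2 3.87, SE 0.20, adjusted p = 3.31e-09) and 14.8 in WT mice (log2 3.89, SE 0.20, adjusted p = 2.68e-09) were within 1 SE of each other. Ccl5 already gave a strong signal in naive mice and had the smallest SE of the 10 genes. It was at 12.58, 12.61 and 12.42 in LPS challenged ficolin KO mice and at 10.77, 10.56 and 10.66 in naive ficolin KO mice. In WT mice it was at 12.56, 12.57 and 12.50 after LPS and at 10.43, 10.44 and 10.66 in naive mice. Ccl5 rose by a fold-change of 3.66 in ficolin KO mice (log2 1.87, SE 0.11, adjusted p = 1.03e-08) and 4.09 in WT mice (log2 2.03, SE 0.11, adjusted p = 4.18e-09).

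Ccl11 and Ccl24 are eotaxins, ligands of CCR3 that attract eosinophils; Ccl11 rose and Ccl24 did not pass. Ccl11, made by stromal and epithelial cells, was at 8.31, 8.39 and 8.04 in LPS challenged ficolin KO mice and at 4.82, 5.34 and 5.45 in naive ficolin KO mice. In WT mice it was at 8.29, 8.16 and 8.28 after LPS and at 5.38, 5.02 and 4.54 in naive mice. It rose by a log2 fold-change of 3.04 in ficolin KO mice (SE 0.20, adjusted p = 2.25e-08) and 3.26 in WT mice (SE 0.20, adjusted p = 1.04e-08), with LPS challenged arrays that were closer together than naive ones.

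Ccl24, an eotaxin made by macrophages, was at 4.71, 4.84 and 4.38 in LPS challenged ficolin KO mice and at 5.34, 5.73 and 4.57 in naive ficolin KO mice. In WT mice Ccl24 was at 4.93, 4.47 and 4.96 after LPS and at 5.0, 4.91 and 6.00 in naive mice. The groups overlapped in both genotypes, and the naive mice of each varied most, with SDs of 0.59 in ficolin KO and 0.61 in WT mice (n = 3 each). The log2 fold-change was -0.57 in ficolin KO mice (95% interval -1.20 to 0.06, adjusted p = 0.182) and -0.52 in WT mice (95% interval -1.14 to 0.11, adjusted p = 0.217), so that a rise of the size of any other of the 10 genes lay outside both intervals.

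Ccl17 and Ccl22 are ligands of CCR4, made above all by dendritic cells and by macrophages under IL-4. Ccl22 was at 7.57, 7.72 and 7.41 in LPS challenged ficolin KO mice and at 5.42, 5.59 and 6.17 in naive ficolin KO mice. In WT mice Ccl22 was at 7.71, 7.54 and 7.59 after LPS and at 5.89, 6.10 and 6.20 in naive mice. It rose in both genotypes, by a log2 fold-change of 1.84 in ficolin KO mice (SE 0.17, adjusted p = 7.1e-07) and 1.55 in WT mice (SE 0.17, adjusted p = 3.97e-06).

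Ccl17 was at 5.15, 4.90 and 4.50 in LPS challenged ficolin KO mice and at 3.71, 3.88 and 3.66 in naive ficolin KO mice. In WT mice Ccl17 was at 4.99, 4.52 and 5.18 after LPS and at 3.86, 3.95 and 4.13 in naive mice. All naive arrays were dim for it, so that its fold-changes may be too small, and all LPS challenged arrays lay above them. Its fold-change was 2.14 in ficolin KO mice (log2 1.10, SE 0.18, adjusted p = 0.000211), which passed both criteria, and 1.89 in WT mice (log2 0.92, SE 0.18, adjusted p = 0.000974), which missed only the fold-change of 2. The difference between the responses was 0.18 (SE 0.25, 95% interval -0.36 to 0.73), so the genotypes were not shown to differ in it. The call for ficolin KO mice was lost without LPS challenged ficolin KO replicate 1 (log2 fold-change 0.95) and with the mean of exocrine pancreas markers added to the model (0.79, adjusted p = 0.051), and the call for WT mice was gained without LPS challenged WT replicate 2 (log2 fold-change 1.10).

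**Figure D2:**
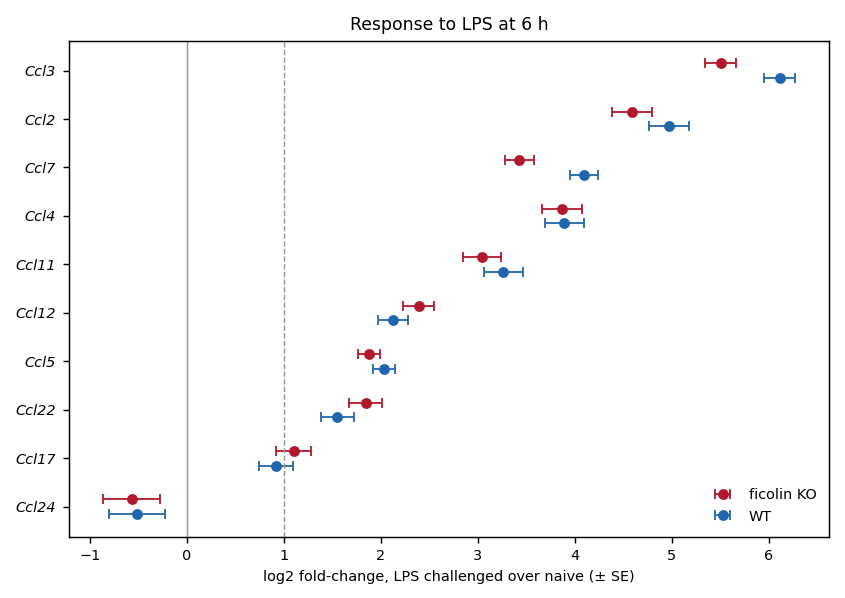
Log2 fold-change of LPS challenged over naive mice (x axis, ± SE) for each of the 10 genes (y axis) in ficolin KO and WT mice; the dashed line marks a fold-change of 2. The values run from 5.50 in ficolin KO and 6.11 in WT mice for Ccl3 to -0.57 in ficolin KO and -0.52 in WT mice for Ccl24.

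By size of the response, the genes fell in the order Ccl3, Ccl2, Ccl4, Ccl7, Ccl11, Ccl12, Ccl5, Ccl22, Ccl17 and Ccl24 in ficolin KO mice, and among WT mice in the same order but for Ccl7, which came before Ccl4. Neighbours in this order were compared by the 95% interval of the difference between their log2 fold-changes. The intervals came from ordinary least squares on the per-array difference of the 2 genes (8 residual degrees of freedom), without adjustment. The order came from the same values, and a step that exceeded its spread in 1 genotype only does not show that the genotypes differ. In both genotypes Ccl3 stood above Ccl2, by 0.92 in ficolin KO mice (0.36 to 1.47) and 1.14 in WT mice (0.59 to 1.69), and Ccl2 stood above the gene in the next place. Ccl4 and Ccl7 could not be told apart in ficolin KO mice, where Ccl4 was ahead by 0.44 (-0.16 to 1.04), nor in WT mice, where Ccl7 was ahead by 0.20 (-0.40 to 0.80). The step to Ccl11 from the gene before it did not exceed the spread in either genotype. The step from Ccl11 to Ccl12 exceeded it in WT mice (1.14, 0.38 to 1.90) and not in ficolin KO mice (0.66, -0.10 to 1.42). Ccl12 and Ccl5 differed in ficolin KO mice (0.51, 0.05 to 0.98) and not in WT mice (0.09, -0.38 to 0.56), whereas Ccl5 and Ccl22 differed in WT mice (0.48, 0.05 to 0.91) and not in ficolin KO mice (0.03, -0.40 to 0.46). Ccl22, Ccl17 and Ccl24, the last 3, were each separated from the next in both genotypes.

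The genes lie in runs on the mouse chromosomes, 4 and 3 of the 10 in runs on chromosome 11 and 2 beside each other but for 1 gene on chromosome 8. Along the run that opens with Ccl2, the log2 fold-changes in ficolin KO mice were 4.59 for Ccl2, 3.43 for Ccl7, 3.04 for Ccl11 and 2.39 for Ccl12, and in WT mice 4.97, 4.09, 3.26 and 2.12. By the estimates, size thus went down gene by gene in the annotated order in both genotypes. In ficolin KO mice neither the step from Ccl7 to Ccl11 nor that from Ccl11 to Ccl12 exceeded the spread. The step from Ccl2 to Ccl7 was not compared there. In WT mice the steps from Ccl2 to Ccl7 and from Ccl11 to Ccl12 exceeded it, and that from Ccl7 to Ccl11 was not compared. The neighbours that close this run did not pass and were dim, Ccl8 on 11 and Ccl1 on all of the 12 arrays. Ccl8, a CCR8 ligand in the mouse, had 0.00 in ficolin KO and 0.18 in WT mice, and Ccl1, also a CCR8 ligand, had -0.09 in ficolin KO and 0.00 in WT mice.

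The run of Ccl5, Ccl9, Ccl6, Ccl3 and Ccl4 held genes with responses of both signs. Between Ccl5 and Ccl3 lie Ccl9 and Ccl6, CCR1 ligands that rodent macrophages make without a stimulus. Ccl9 had 0.17 in ficolin KO and 0.04 in WT mice and did not pass. Ccl6 fell by 1.92 in ficolin KO mice (SE 0.26, adjusted p = 3.65e-05) and by 2.29 in WT mice (SE 0.26, adjusted p = 6.08e-06) on the log2 scale, beside the rise of Ccl3 by 5.50 and 6.11 in the same mice. On chromosome 8, Cx3cl1, the membrane-bound chemokine between Ccl22 and Ccl17, rose too, by 2.55 in ficolin KO mice (SE 0.21, adjusted p = 2.89e-07) and 2.94 in WT mice (SE 0.21, adjusted p = 6.49e-08).

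**Figure D3:**
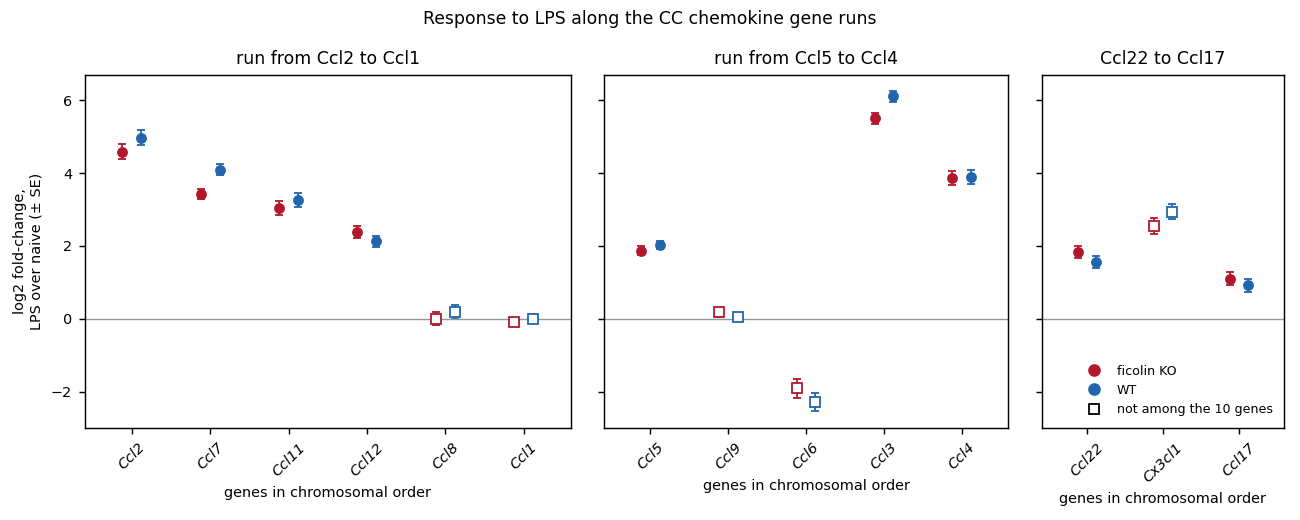
Log2 fold-change of LPS challenged over naive mice (y axis, ± SE) for genes in chromosomal order (x axis) in the runs from Ccl2 to Ccl1, from Ccl5 to Ccl4 and from Ccl22 to Ccl17; filled circles are the genes described, open squares their neighbours, in ficolin KO and WT mice. Ccl6 falls below 0, at -1.92 in ficolin KO and -2.29 in WT mice, next to Ccl3 at 5.50 and 6.11.

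Promoters of 4 of the 10 genes (Ccl3, Ccl12, Ccl17 and Ccl22) were matched in RefSeq (GRCm38.p6), and the 250 bases before the annotated start were searched on both strands for 5 motifs: NF-kB, the TATA box (TATAAA), AP-1 (TGANTCA), the core of the interferon-stimulated response element (GAAA, any 2 bases, GAAA) and the STAT6 site (TTC, any 4 bases, GAA). Shown are Ccl3, which had the largest response, and Ccl12 and Ccl17, the only 2 with a match; capitals mark the match, which begins at position -31 from the start of Ccl12 (TATAAA) and at position -154 from that of Ccl17 (TTCTCTGGAA, a form of the STAT6 site). They are Ccl3 at chr11:83649379-83649628 (minus strand), Ccl12 at chr11:82101595-82101844 (plus strand) and Ccl17 at chr8:94810203-94810452 (plus strand).
Ccl3: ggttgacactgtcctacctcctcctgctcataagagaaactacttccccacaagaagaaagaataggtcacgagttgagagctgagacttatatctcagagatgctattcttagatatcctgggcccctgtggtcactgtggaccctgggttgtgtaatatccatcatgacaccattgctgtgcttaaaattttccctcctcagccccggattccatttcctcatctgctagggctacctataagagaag
Ccl12: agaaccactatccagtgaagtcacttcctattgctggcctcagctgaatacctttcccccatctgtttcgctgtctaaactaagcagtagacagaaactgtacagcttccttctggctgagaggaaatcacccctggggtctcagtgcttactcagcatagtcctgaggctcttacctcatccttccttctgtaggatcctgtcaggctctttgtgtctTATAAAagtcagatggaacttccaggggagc
Ccl17: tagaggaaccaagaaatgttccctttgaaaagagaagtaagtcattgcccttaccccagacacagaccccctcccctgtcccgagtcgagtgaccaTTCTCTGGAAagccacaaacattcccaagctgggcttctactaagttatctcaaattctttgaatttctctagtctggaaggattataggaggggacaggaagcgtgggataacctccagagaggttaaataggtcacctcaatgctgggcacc

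Of all 32851 promoters of this length, 12.4% held TATAAA, 5.85% the STAT6 site, 7.25% the NF-kB motif, 6.75% that of AP-1 and 2.98% that of the interferon-stimulated response element. None of the 4 promoters held the NF-kB, AP-1 or interferon-stimulated motif in these letters. No stretch matched more than 1 motif, positions count back from the base before the annotated start as -1, and a match does not show that a factor was bound.

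Of a list of CC chemokine receptors, receptor-like proteins and decoys, 9 were analysed here. Of all genes, 4.22% rose and 4.41% fell in ficolin KO mice, and 4.05% rose and 4.94% fell in WT mice. Of the 9, in each genotype 2 rose, 2 fell and 5 did not pass. The 2 that rose were Ccrl2 and Ccr8, whose ligands named below are not among the 10 genes. Ccr3, the eotaxin receptor, was at 4.50, 4.09 and 4.14 in LPS challenged ficolin KO mice and at 8.33, 8.44 and 7.98 in naive ficolin KO mice. In WT mice it was at 3.74, 3.99 and 4.22 after LPS and at 8.39, 8.80 and 8.54 in naive mice. Ccr3 fell by 4.01 in ficolin KO mice (SE 0.17, fold-change 0.0622, adjusted p = 4.15e-10) and by 4.59 in WT mice (SE 0.17, fold-change 0.0414, adjusted p = 7.38e-11) on the log2 scale, to a level that was dim on 2 of 3 arrays in each LPS challenged group. In spleen as a whole, fewer cells of a type and less RNA per cell cannot be told apart. Of the 3 measured eosinophil markers, Siglecf, Epx and Prg2, none passed in either genotype. Their mean ranged from 4.98 to 5.84 in LPS challenged ficolin KO mice, 4.88 to 5.23 in LPS challenged WT mice, 4.79 to 6.01 in naive ficolin KO mice and 5.17 to 6.15 in naive WT mice, with Siglecf dim on 10 of the 12 arrays, and the part of these cells in the fall of Ccr3 was not tested.

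Ccr2, the receptor of Ccl2, Ccl7 and Ccl12, fell where these ligands rose. It was at 4.38, 4.82 and 4.20 in LPS challenged ficolin KO mice and at 6.30, 6.21 and 5.62 in naive ficolin KO mice, and it fell by 1.58 on the log2 scale (SE 0.20, adjusted p = 1.71e-05). In WT mice Ccr2 was at 4.90, 4.59 and 4.62 after LPS and at 6.16, 6.19 and 5.75 in naive mice, and it fell by 1.33 (SE 0.20, adjusted p = 8.31e-05). Of the 5 monocyte markers, Ccr2 and Csf1r fell in both genotypes, and 3 did not pass. Ly6c2 had a log2 fold-change of -0.09 in ficolin KO and 0.08 in WT mice, Fn1 had -0.25 in ficolin KO and -0.34 in WT mice, and Chil3 had 0.86 in ficolin KO (adjusted p = 0.0779) and 0.22 in WT mice. The mean of the 5, which holds Ccr2 itself, ranged from 7.45 to 7.95 in LPS challenged ficolin KO mice, 7.56 to 7.64 in LPS challenged WT mice, 8.08 to 8.31 in naive ficolin KO mice and 8.06 to 8.32 in naive WT mice, and the part of these cells in the change of Ccr2 was not tested.

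Ccrl2, a receptor-like protein that presents chemerin and does not signal, was at 9.50, 9.35 and 9.44 in LPS challenged ficolin KO mice and at 5.69, 6.26 and 6.22 in naive ficolin KO mice. In WT mice it was at 9.67, 9.49 and 9.79 after LPS and at 6.36, 5.77 and 5.96 in naive mice. It rose by 3.37 in ficolin KO mice (SE 0.17, adjusted p = 2.43e-09) and 3.62 in WT mice (SE 0.17, adjusted p = 1.1e-09). Ccr8, the receptor of Ccl1 and of mouse Ccl8, rose by 1.09 in ficolin KO mice (adjusted p = 0.00106) and 1.01 in WT mice (adjusted p = 0.00187), a fold-change just past 2 in each. Ackr2, a scavenger of inflammatory CC chemokines, had -0.76 in ficolin KO and -0.60 in WT mice, below the fold criterion. Ccr1 had 0.03 in ficolin KO and 0.34 in WT mice, and Ackr1 and the scavenger of homeostatic chemokines Ackr4 lay between -0.24 and 0.14. Ccr4, the receptor of Ccl17 and Ccl22, was dim on all 12 arrays and had 0.08 in ficolin KO and -0.10 in WT mice.

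**Figure D4:**
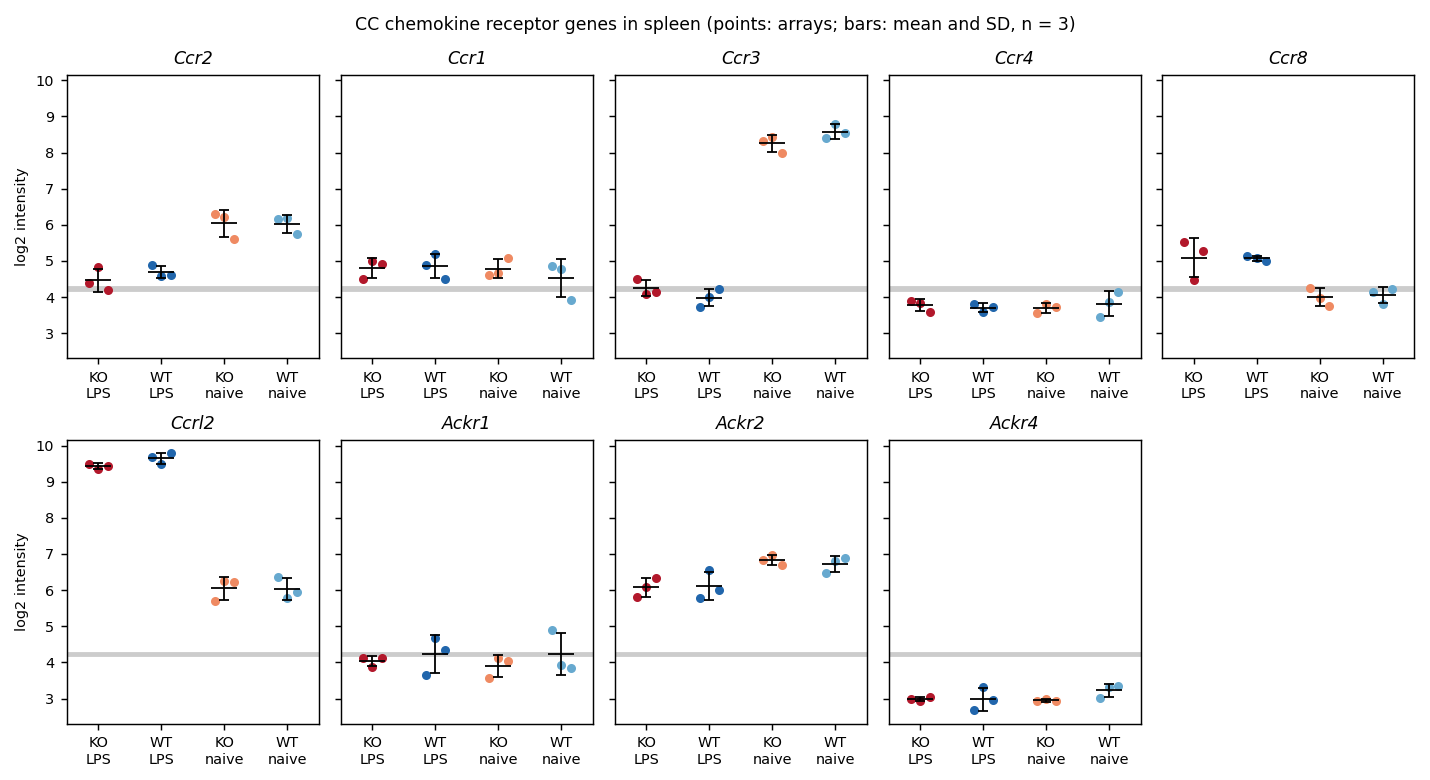
Log2 intensity (y axis) of 9 receptor and decoy genes on every array in LPS challenged ficolin KO, LPS challenged WT, naive ficolin KO and naive WT mice (x axis); points are arrays, lines the mean and SD of 3 mice, and the grey band spans the array medians. Ccr3 falls to the band after LPS, by 4.01 in ficolin KO and 4.59 in WT mice, while Ccrl2 rises by 3.37 and 3.62.

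Of 8 other CC chemokine genes that were measured (Ccl19 and Ccl21a were not analysed here), none rose and 1, Ccl6, fell in each genotype. The shares of all genes were 4.22% higher and 4.41% lower in ficolin KO mice, and 4.05% higher and 4.94% lower in WT mice. The other 7 of the 8 had log2 fold-changes from -0.09 to 0.22 in ficolin KO mice and from -0.45 to 0.52 in WT mice. The ends of the WT range were Ccl28 (-0.45, adjusted p = 0.0391, below the fold criterion and dim on all 12 arrays) and Ccl27a (0.52, adjusted p = 0.088), both best known from epithelia, and Ccl20 and Ccl25, ligands of CCR6 and CCR9, lay between -0.16 and 0.21.

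Of 15 measured genes known to regulate CC chemokine genes, 7 rose in ficolin KO and 8 in WT mice, and none fell. Ifng, the interferon of NK and T cells, rose by a log2 fold-change of 5.23 in ficolin KO mice (adjusted p = 1.17e-09) and 5.11 in WT mice (adjusted p = 1.39e-09). Irf7, a transcription factor of the interferon response, rose by 2.85 and Nfkbiz, a nuclear cofactor of NF-kB, by 2.51 in ficolin KO mice, and by 3.13 and 2.53 in WT mice. Tnf rose by 1.84 in ficolin KO and 2.28 in WT mice and Il1b by 1.83 in ficolin KO and 2.15 in WT mice, and Zc3h12a, a ribonuclease that degrades inflammatory mRNAs, rose by 1.81 in ficolin KO and 1.71 in WT mice. Il4, the cytokine known to induce Ccl17, Ccl22 and Ccl24, had 0.02 in ficolin KO and -0.06 in WT mice and did not pass, but it was dim on all 12 arrays.

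Markers of several cell types, not all of them known to make these chemokines, moved with treatment as well. Beside the counts below, 4.22% of all genes rose and 4.41% fell in ficolin KO mice. In WT mice 4.05% rose and 4.94% fell. Red pulp macrophage markers fell in 5 of 6 genes in ficolin KO and 4 of 6 in WT mice, and the mean of the list ranged from 7.70 to 8.01 in LPS challenged ficolin KO mice, 7.81 to 7.97 in LPS challenged WT mice, 9.41 to 9.85 in naive ficolin KO mice and 9.53 to 9.72 in naive WT mice. No neutrophil marker of 6 rose, and 1, Cxcr2, fell in ficolin KO mice. Of 5 dendritic cell markers, Ccr7, which marks mature cells, rose by 1.71 in ficolin KO and 1.82 in WT mice, and 2 fell in ficolin KO and 3 in WT mice. Lymphocyte markers fell as well, 3 of 4 of B cells and 3 of 4 of NK cells in each genotype, and 5 of 5 of T cells in ficolin KO and 3 of 5 in WT mice. Of 3 markers of marginal zone and metallophilic macrophages, Cd209b fell in each genotype and Marco rose in WT mice. Of 4 endothelial markers, Stab2 and Kdr fell in each genotype and Cdh5 passed in ficolin KO mice only (1.15, and 0.89 in WT mice). Of 4 stromal markers Tcf21 fell in each and Col1a1 passed in ficolin KO mice only (-1.15, and -0.97 in WT mice). Adgre1 (red pulp macrophages), Cd3d and Cd8a (T cells), Flt3 (dendritic cells), Cxcr2 and Marco likewise passed in 1 genotype and moved the same way in the other. The responses of these markers were not shown to differ between genotypes (adjusted p = 0.998 each, limma). All 6 measured markers of exocrine pancreas, a tissue other than spleen, fell in ficolin KO mice, with a median log2 fold-change of -3.80. None passed in WT mice, where the median was 0.50. The mean of these markers varied widely among the LPS challenged ficolin KO arrays, from 4.21 to 9.03. The part of these cells in the rise of the 9 chemokine genes was not tested.

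The genes whose pattern over the 12 arrays was most like that of a chemokine gene were found by the root mean square difference of log2 values after each gene was centred on its own mean, where 0 is identity. For Ccl2 they were Tnip3, an inhibitor of NF-kB signalling (0.28), Ptgs2, the inducible cyclooxygenase (0.28), and Cxcl1, a neutrophil chemokine (0.34). For Ccl3 they were Acod1, the itaconate-producing enzyme (0.32), Il6 (0.46) and Ifng (0.48), and the nearest gene lay farther off than that of Ccl2. The interferon-induced antiviral gene Ifit1 (0.19) and Oas3 (0.23) lay closest to Ccl7, followed by Ccrl2 (0.24), and Dhx58 (0.22), a cytosolic sensor of RNA, lay closest to Ccl12. Cfb (0.22), a complement factor, and Igtp (0.23), an interferon-induced GTPase, came next for Ccl12. Closest to Ccl5 were Bcl3 (0.089), an NF-kB cofactor, Mreg (0.096) and Mov10 (0.097), and to Ccl11 Cd274 (0.178), the gene of PD-L1, Slc7a5 (0.225), an amino acid transporter, and Steap4 (0.227). Ccl4 was closest to Timp1 (0.195), an inhibitor of metalloproteinases, Fgf23 (0.264), a hormone of phosphate balance, and 1700011B04Rik (0.278). For Ccl17 they were Amigo3 (0.151), Gfpt2 (0.156) and Lama5 (0.168), a laminin chain, and for Ccl22 Nol6 (0.159), Csrnp1 (0.168) and Cad (0.169), an enzyme of pyrimidine synthesis. Ccl24, which did not pass, was closest to Serpina1b (0.218), an antitrypsin gene, Dnm1 (0.24) and Gm10220 (0.245). These differences are descriptions over the arrays of all groups, which share the effect of LPS.

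Between genotypes, none of the 10 genes passed the criteria (fold-change over 1.5 and p under 0.05, limma) in LPS challenged mice, where 0.46% of all genes did. None had an unadjusted p under 0.05, against 5.18% of all genes, and the genotypes overlapped for all 10, where 10.9% of all genes did not overlap. The log2 fold-change of ficolin KO over WT mice lay between -0.36 for Ccl2 (fold-change 0.779, 95% interval -0.79 to 0.07, adjusted p = 0.93) and 0.26 for Ccl12 (fold-change 1.20, 95% interval -0.08 to 0.60, adjusted p = 0.93). Ccl5 was the most narrowly bounded, at -0.01 (95% interval -0.25 to 0.23), and Ccl3 was at -0.02 (-0.36 to 0.31). The intervals of Ccl2, Ccl4, Ccl12 and Ccl24 reached past a fold-change of 1.5 in 1 direction, and those of the other 6 genes did not. The farthest ends were those of Ccl2 (-0.79) and Ccl24 (-0.77). Without LPS challenged WT replicate 2, the lowest array of its group for 8 of the 10 genes, Ccl2 passed the criteria at a log2 fold-change of -0.59 (adjusted p = 0.992).

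The exocrine pancreas markers that fell after LPS in ficolin KO mice moved with this comparison as well. All 6 measured markers were lower in LPS challenged ficolin KO than WT mice, and their mean ranged from 4.21 to 9.03 in LPS challenged ficolin KO mice, 9.56 to 11.5 in LPS challenged WT mice, 9.78 to 11.3 in naive ficolin KO mice and 9.03 to 10.9 in naive WT mice. With that mean added to the model, none of the 10 chemokine genes passed in LPS challenged mice either, though the log2 fold-change of Ccl11 moved from 0.003 to -0.314. The marker mean itself was 6.82 in LPS challenged ficolin KO and 10.6 in LPS challenged WT mice. Marker level and genotype thus largely coincide, and this model cannot separate them. The log2 fold-changes of the 6 markers, LPS challenged over naive, differed by a median of -4.30 between ficolin KO and WT mice. None of these differences passed after adjustment, though all 6 had an unadjusted p under 0.05 (limma).

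In naive mice none of the 10 genes passed, where 0.185% of all genes did, and 2 of the 10, Ccl3 and Ccl7, had an unadjusted p under 0.05, where 2.85% of all genes had. The naive ficolin KO arrays of Ccl3 (6.27, 6.33 and 5.83) lay above the naive WT arrays (5.58, 5.28 and 5.82), the lowest of them only just. The log2 fold-change was 0.58 (SE 0.16, 95% interval 0.25 to 0.92, adjusted p = 0.999), and the fold-change of 1.498 fell just short of 1.5. Ccl7 was at 4.53, 4.56 and 4.73 in naive ficolin KO mice and at 4.43, 4.05 and 4.13 in naive WT mice. Its log2 fold-change was 0.40 (SE 0.15, 95% interval 0.09 to 0.72, adjusted p = 0.999). For these 2 of the 10 genes the genotypes did not overlap, where 6.28% of all genes did not. Ccl3 passed the criteria when WT replicate 1 (0.59), WT replicate 3 (0.71) or ficolin KO replicate 3 (0.74) of the naive mice was left out, still with an adjusted p of 0.727 or more in all alternatives run. The other 8 had log2 fold-changes from -0.34 for Ccl22 (95% interval -0.70 to 0.02) to 0.22 for Ccl11 (-0.20 to 0.65). Of the 10 genes, 1, Ccl7, had all ficolin KO arrays below the WT mean after LPS and above it in naive mice, and 6.29% of all genes had them on opposite sides.

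**Figure D5:**
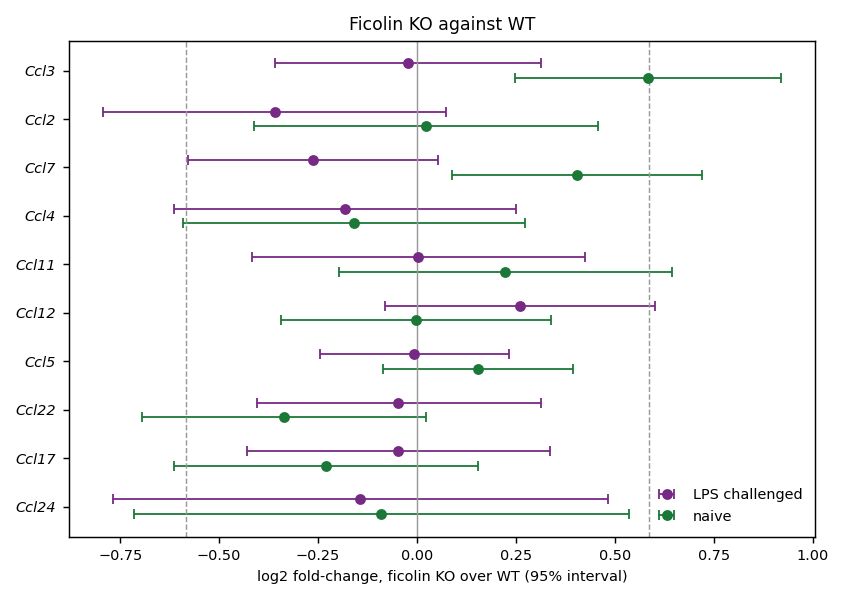
Log2 fold-change of ficolin KO over WT mice (x axis, with 95% interval) for each of the 10 genes (y axis), LPS challenged and naive; the dashed lines mark a fold-change of 1.5 in either direction. In LPS challenged mice all intervals span 0, and in naive mice those of Ccl3 (0.58) and Ccl7 (0.40) do not.

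The response of ficolin KO mice minus that of WT mice differed from 0 for none of the 10 genes at an adjusted p under 0.05, where 0.00902% of all genes passed, and for 2 at an unadjusted p under 0.05, where 3.53% of all genes did. These were the same 2 genes, Ccl7 at -0.67 (SE 0.21, 95% interval -1.11 to -0.22, adjusted p = 0.998) and Ccl3 at -0.61 (SE 0.22, 95% interval -1.08 to -0.13, adjusted p = 0.998). Their naive values enter this difference as well as the comparison of naive mice. The remaining 8 lay between -0.38 for Ccl2 and 0.29 for Ccl22, and the widest interval was that of Ccl24, from -0.94 to 0.83.

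Within groups, the arrays were ranked for each of the 10 genes. The same ranks over all genes were not computed, so the counts cannot be read as particular to these genes. LPS challenged WT replicate 2 was the lowest of its group for 8 of the 10, and its mean over the 10 was 7.94, against 8.25 and 8.28 on the other arrays of the group. LPS challenged ficolin KO replicate 3 was lowest of its group for 7, with a mean of 7.99 against 8.12 on both other arrays. In naive mice the means lay between 5.28 and 5.47 in ficolin KO mice and between 5.20 and 5.41 in WT mice. Naive WT replicate 2 was lowest of its group for 6 of the 10 genes and replicate 3 highest for 6. Each array's deviation from its group mean was then correlated between genes over the 12 arrays, in 45 pairs, with exact permutation within groups (two-sided). None of the pairs had an adjusted p under 0.05, and 4 had an unadjusted p under 0.05. Among these 4 were Ccl17 and Ccl24 (r = 0.62, permutation p = 0.00617, adjusted p = 0.139) and Ccl3 and Ccl17 (r = 0.537, permutation p = 0.027, adjusted p = 0.304). The closest pair was Ccl3 and Ccl24 (Pearson's r = 0.924, permutation p = 0.00309, adjusted p = 0.139, and Spearman's rho = 0.881, permutation p = 0.00772). Without the 2 arrays on which Ccl3 lay farthest from the median of its deviations, r was 0.903. These 2 arrays were picked by Ccl3 alone. Naive WT replicate 3, the highest of its group for Ccl24 at 6.00, was kept, so this value does not show that r is free of outlying Ccl24 arrays. The neighbouring genes Ccl3 and Ccl4 had r = 0.791 (permutation p = 0.0116, adjusted p = 0.174, and rho = 0.676, permutation p = 0.0363). Without the same 2 arrays, again picked by Ccl3 alone, their r was 0.644.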

How the data were processed

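RNA from 12 spleens was measured on 12 arrays, in 4 groups of 3 mice set by the labels. The authors applied quantile normalization to the scanned arrays and took gene summaries by robust multi-array average (RMA). They deposited log2 intensities for 41345 probe sets on each array, with values from 1.38 to 13.86. The scanned arrays were not used here, and the genome build of the files and any batch or scan date are not given in the sources used here. Of the probe sets, 23521 carried 1 gene symbol in the platform annotation, 1820 carried several and 16004 none. Those with 1 symbol were kept, and of several rows of a gene (1082 genes) the one of highest mean over the 12 arrays, which gave 22180 genes with no filter on dim ones.

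A group means model was fitted to all 12 arrays with limma 3.58.1 (lmFit, contrasts and eBayes, R 4.3.3), with 8 residual and 6.67 prior degrees of freedom, and p-values were adjusted by Benjamini-Hochberg over all genes. The criteria were those of the study's methods, between treatments an adjusted p below 0.05 and more than 2-fold change, and between genotypes an unadjusted p below 0.05 and more than 1.5-fold change. The difference between responses was called at an adjusted p below 0.05. Precision is limited by the number of arrays: the median SE was 0.141 for a log2 fold-change and 0.2 for a difference between responses, and an exact permutation test of 3 against 3 cannot give a p below 0.1. Replicates are separate mice per the series' design. Promoters came from RefSeq (GRCm38.p6), and the order of genes from its annotation. Correlations and motifs were computed in Python 3.11.15 with NumPy 2.4.6. The fit was tested on simulated data.

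The genes and lists were chosen with earlier results of these data known. Named were the 10 genes, the measured receptors and other CC chemokines, the 6 regulators of the largest fold-change in WT mice, the 3 nearest genes of each of the 10, and markers beside a result. Il4, Dpp4, Irf3 and Cx3cl1 were named beyond that rule after their values were seen. Alternatives were pairs of groups alone, ordinary least squares, trended and robust variances, array weights, dim genes left out, all probe sets, averaged probe sets, array medians subtracted, quantile normalization again, the mean of exocrine pancreas markers in the model, no fold criterion, a replicate block and leaving out each array.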

Additional observations from a re-analysis of the deposited data

Results flagged for a closer look

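For 3 of the 42 genes examined (the 10 chemokine genes and the receptor, other CC chemokine and regulator lists), every ficolin KO array lay on one side of the WT mean after LPS and on the other side in naive mice. That is 7.14% of them, where 6.29% of all 22180 genes did so. Ccl7 had a log2 fold-change of ficolin KO over WT mice of -0.26 in LPS challenged and 0.40 in naive mice, and its responses differed by -0.67 (adjusted p = 0.998, limma). Ccr3 had 0.26 in LPS challenged and -0.33 in naive mice, a difference of 0.59, and it was dim on 2 of 3 arrays in each LPS challenged group. Ccl28 had 0.31 in LPS challenged and -0.13 in naive mice, a difference of 0.44, and it was dim, below the median of its array, on all 12 arrays. None of the 3 differences between the responses passed at an adjusted p under 0.05 in the fit over all genes.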

How the results depend on the processing

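Each value of the 10 genes was computed again under 24 alternatives, 12 of which left out 1 array. Of 1180 values, 1167 kept their side of the criteria, 2 lost a call, 11 gained one and none reversed; 42 values that were not called in either setting changed sign. Between genotypes in naive mice, the count of 0 became 1 with array medians subtracted, with quantile normalization again and with the mean of exocrine pancreas markers added to the model (Ccl3 at 0.59, 0.60 and 0.61), and 2 with no fold criterion (Ccl3 and Ccl7); it was 0 to 1 with 1 array left out. In LPS challenged mice it was 0 to 1 with 1 array left out (1 without WT replicate 2) and 0 under the other alternatives. The count after LPS was 8 to 9 in each genotype, with Ccl17 the gene that came or went, and the difference between responses passed for 0 of the 10 throughout. The cause of these changes was not tested.

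Replicate numbers did not pair the arrays: 2 of 18 same-numbered pairs had correlated deviations over 0.1 (-0.217 to 0.249), and with the replicate block the counts of the 10 genes were 9 and 8 after LPS in ficolin KO and WT mice, and 0 for each comparison of genotypes. Over all genes, the count between genotypes in LPS challenged mice was 102, but 46 by ordinary least squares, 362 with the pancreas markers added, 1150 with no fold criterion and up to 208 with 1 array left out. In naive mice it was 41, but 17 by ordinary least squares, 23 without dim genes, 633 with no fold criterion and up to 110 with 1 array left out. After LPS it was 1914 in ficolin KO and 1994 in WT mice, but 6152 and 6670 with no fold criterion, and for the difference between responses 2, with 0 to 3 under alternatives. Pairs of groups alone cannot give that difference, which also has no fold criterion. Signal over background limits Ccl12 and Ccl17, dim in all naive mice, and Ccl7 in naive WT mice.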
